A study of Homo sapiens with 19 samples.

Results

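H3K27ac peaks in gene deserts were counted in 4 human leukaemia lines, where a desert peak was a ChIP-seq peak whose nearest edge lay at least 250 kb from every transcription start site (TSS) of a protein-coding gene in GENCODE release 44. The rule used positions alone and selected 6536 of 130757 peaks on chromosomes 1 to 22 and X of hg38. Of these, 1424 came from HL-60, 1927 from Molm13, 2076 from OCI-AML3 and 1109 from K562. HL-60, Molm13 and OCI-AML3 are lines from acute myeloid leukaemia (AML), and K562 is a line from chronic myeloid leukaemia. HL-60 and Molm13 had received no treatment, whereas OCI-AML3 and K562 carried dCas9-KRAB-mCherry (a dead Cas9 fused to a repressor domain) and an empty sgRNA vector with a BFP reporter and had been sorted for both colours, so vector and line cannot be told apart. All 4 lines grew in the same RPMI medium. Each line gave 1 library with a peak list, there were no replicates, and the sequencing depth was unknown. The series holds 19 samples, and the H3K27ac lists of these 4 were compared here.

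Acetylation of lysine 27 of histone H3 (H3K27ac) marks active enhancers and promoters. Gene deserts are long stretches without protein-coding promoters; some hold enhancers that act on a gene far away, and many hold long non-coding RNA (lncRNA) genes with promoters of their own. In blood cells, well-known distant enhancers act on MYC, a transcription factor that drives growth, and are active at different positions in different lineages.

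Marker genes of blood lineages were read first as a check of the labels. H3K27ac lay within 500 bp of a TSS for 10 of 10 erythroid and megakaryocytic marker genes in K562, against 2 (HL-60), 2 (Molm13) and 1 (OCI-AML3); GATA1, KLF1 and the globin genes HBG1, HBG2 and HBZ had a peak in K562 and in none of the AML lines. For the 10 granulocyte-monocyte markers the counts were 9 (HL-60), 10 (Molm13), 10 (OCI-AML3) and 5 (K562), and for the 8 B and T cell markers they were 3, 1, 1 and 1. CD3D, CD3E and CD3G, which define T cells, had no peak in any of the 4 lists.

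Sequences of 3 desert regions show what the letters under these peaks look like. Of the regions held by all 4 lines, they are the 3 ranked highest by their lowest percentile of fold enrichment in any list (shared regions 1 to 3). Each is 300 bases of the hg38 + strand at the centre of the bases that the peaks have in common. Shared region 1 is chrX:73944073-73944372 over the TSS of JPX, a lncRNA gene known to activate the X-inactivation RNA. Shared region 2 is chr19:27793644-27793943, where the 5′ ends of the lncRNA genes LINC00662 and LINC02987 overlap, and shared region 3 is chr6:57961115-57961414 at the 5′ end of the lncRNA gene LINC00680. Capitals mark matches on either strand to 7 short motifs of blood transcription factors. The letters searched were AGATAA for GATA factors, with the spelling TGATAA counted as the same motif. RUNX factors were searched by the letters TGTGGT, and ETS factors such as SPI1 by the longer letters GAGGAAGT. For the AP-1 factors the searched letters were TGANTCA, in which N is any base. For the CEBP factors of granulocytes the searched letters were TTGCNNAA, with any base at each N. An E-box of the blood type was searched by the letters CAGATG, and the MEIS homeobox factors by the letters TGACAG.
shared region 1: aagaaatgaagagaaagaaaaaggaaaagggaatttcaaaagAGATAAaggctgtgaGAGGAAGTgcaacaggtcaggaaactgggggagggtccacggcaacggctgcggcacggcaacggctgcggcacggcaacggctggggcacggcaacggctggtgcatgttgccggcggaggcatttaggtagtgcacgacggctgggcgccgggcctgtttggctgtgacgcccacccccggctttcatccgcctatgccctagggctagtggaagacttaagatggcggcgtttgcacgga
shared region 2: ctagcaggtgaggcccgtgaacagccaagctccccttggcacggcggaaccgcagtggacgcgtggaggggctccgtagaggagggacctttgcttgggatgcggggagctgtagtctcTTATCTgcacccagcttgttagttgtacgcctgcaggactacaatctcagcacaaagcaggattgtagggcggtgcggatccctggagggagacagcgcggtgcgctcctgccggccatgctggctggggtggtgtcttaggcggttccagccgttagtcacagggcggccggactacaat
shared region 3: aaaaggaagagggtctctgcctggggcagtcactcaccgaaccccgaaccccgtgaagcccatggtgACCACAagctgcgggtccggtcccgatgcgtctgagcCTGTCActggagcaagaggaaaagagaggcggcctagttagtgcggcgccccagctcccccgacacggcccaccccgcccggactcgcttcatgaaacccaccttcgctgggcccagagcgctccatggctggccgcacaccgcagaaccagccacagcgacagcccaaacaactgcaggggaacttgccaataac
The 3 shared sequences were GC-rich, at 59.3%, 62.3% and 64.0% G and C with 22, 19 and 20 CpG dinucleotides. Shared region 1 held 1 GATA and 1 ETS/SPI1 match, shared region 2 held 1 GATA match, and shared region 3 held 1 RUNX and 1 MEIS match.

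Desert peaks were a small part of each list and were sparser than the sequence available to them. Deserts numbered 992 and covered 672 Mb, or 23.1% of the 2911 Mb of assembled sequence, with a median length of 352 kb. Desert peaks made up 6.87% of the HL-60 list (Wilson 95% interval 6.53 to 7.22%), 5.49% of the Molm13 list (5.26 to 5.74%), 5.53% of the OCI-AML3 list (5.30 to 5.77%) and 2.96% of the K562 list (2.80 to 3.14%). These intervals cover counting error only. HL-60 had the shortest list of all peaks, 20733, and the largest desert share; K562, with 37424 peaks, had the smallest share. This order depended on the weak peaks: among peaks with a q-value below 0.001 the shares were 2.20% (HL-60), 3.07% (Molm13), 3.99% (OCI-AML3) and 2.15% (K562). Of the desert peaks, 14.3% (HL-60), 27.2% (Molm13), 40.7% (OCI-AML3) and 31.1% (K562) had a q-value below 0.001.

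Per Mb of desert there were 2.12 peaks (HL-60), 2.87 (Molm13), 3.09 (OCI-AML3) and 1.65 (K562), against 7.12, 12, 12.9 and 12.9 over all sequence. In Molm13 the density fell with distance, from 3.38 per Mb at 250 to 500 kb from the nearest protein-coding TSS to 2.76 at 500 to 1000 kb and 1.96 beyond 1000 kb. OCI-AML3 went from 3.82 to 2.76 and 2.05, and K562 from 2.03 to 1.45 and 1.15. HL-60 differed little between the 3 distances, with 2.25, 2.00 and 2.02 peaks per Mb. Beyond 1000 kb the 3 AML lines had 297, 288 and 302 peaks, although their desert totals differed, and K562 had 169.

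**Figure D1:**
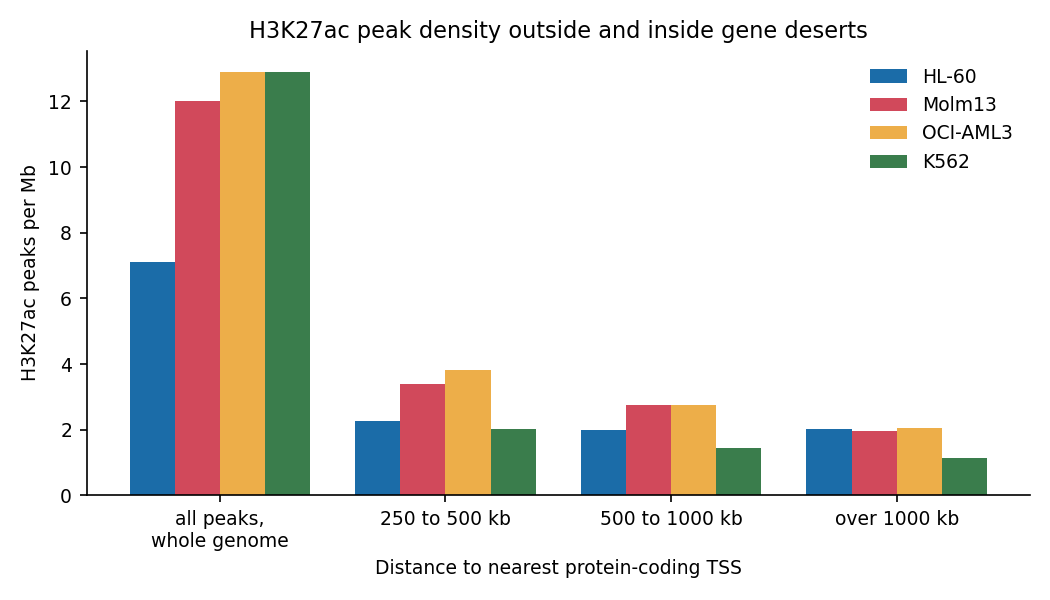
H3K27ac peaks per Mb of assembled sequence (vertical axis) over the whole genome and in 3 classes of distance to the nearest protein-coding TSS (horizontal axis), 1 bar per line and no error bars because each line had 1 library. Molm13, OCI-AML3 and K562 drop with distance, while HL-60 stays between 2.00 and 2.25 peaks per Mb in the desert classes.

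The limit of 250 kb did not mark a step in the peaks themselves. HL-60 had 131 peaks at 225 to 250 kb with a median width of 703 bp and 124 peaks at 250 to 275 kb with a median of 730 bp. The medians just outside and just inside were 920 and 836 bp in Molm13, 1041 and 1063 bp in OCI-AML3, and 1026 and 1154 bp in K562.

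Desert peaks were narrower than distal peaks (10 to 250 kb from a protein-coding TSS) in the 3 AML lines and about as wide in K562. The median width in deserts was 596 bp in HL-60 (95% interval of the median 564 to 638 bp), 816 bp in Molm13 (781 to 856 bp), 979 bp in OCI-AML3 (936 to 1028 bp) and 1023 bp in K562 (969 to 1097 bp). The distal medians were 744, 965, 1064 and 1006 bp. Taking the lines as the replicates, the mean difference was -91.4 bp (SD 78.3, n = 4, lower in 3 of 4 lines), with p = 0.25 in an exact two-sided sign-flip permutation test and 0.375 after Benjamini-Hochberg adjustment over the 12 measures tested. With 4 lines this test cannot go below 0.13, so it could not reach 0.05 for any measure.

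A few desert peaks were very wide. Peaks of 5 kb or more numbered 7 in HL-60 (0.492% of desert peaks, against 1.07% of all peaks in the list), 35 in Molm13 (1.82% against 4.33%), 73 in OCI-AML3 (3.52% against 5.48%) and 66 in K562 (5.95% against 8.16%). In each list the desert share was below that of the whole list.

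**Figure D2:**
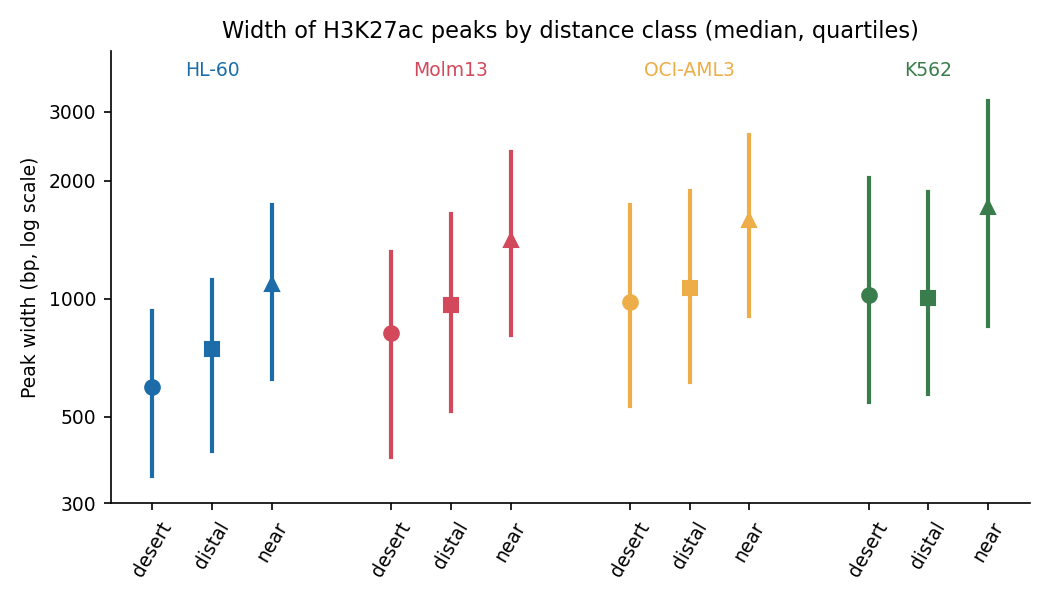
Width of H3K27ac peaks in bp on a log axis for desert, distal and near (under 10 kb) peaks of each line; the symbol is the median and the line spans the quartiles over peaks. The desert median lies below the distal one in HL-60, Molm13 and OCI-AML3, and at 1023 against 1006 bp in K562.

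The widest desert peak of HL-60 and of OCI-AML3 lay at the TSS of MIR222HG, the host gene of the microRNAs miR-221 and miR-222, in the region chrX:45750957-45772311. The peak was 8805 bp wide (HL-60), 21005 bp (Molm13) and 21355 bp (OCI-AML3), and K562 had none. Its fold enrichment over local background, as the authors' peak caller gave it, was 4.83, 5.82 and 4.73 in the 3 AML lines. The hairpins themselves lay outside the region, 4.69 kb (MIR221) and 3.83 kb (MIR222) from its left edge. Both mature microRNAs, shown as the product of the gene under the widest peaks and chosen after its values were seen, share the seed in capitals (bases 2 to 8; RefSeq, GRCh38.p14, - strand).
hsa-miR-221-3p: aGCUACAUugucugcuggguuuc
hsa-miR-222-3p: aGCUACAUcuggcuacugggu
Of 100 RefSeq microRNA hairpins that lie in deserts, 2 were overlapped by a desert peak in Molm13 (MIR5583-1 and MIR5583-2, which share their position on opposite strands), 1 in K562 (MIR6073) and 0 in HL-60 and in OCI-AML3. The share over all RefSeq hairpins was not counted, so these numbers have no background beside them.

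Other very wide peaks also differed between the lines. The widest in Molm13 was 29088 bp, in chr4:180049278-180078384 at the lncRNA gene ENSG00000287083, 2066.3 kb from TENM3, where OCI-AML3 had 13635 bp and HL-60 and K562 had no peak. A region without an annotated gene, chr5:165183510-165211828, had widths of 5714, 27338 and 10722 bp in HL-60, Molm13 and OCI-AML3 and none in K562. A region 351.6 to 357.7 kb from BCL11A, a repressor of fetal globin genes, at chr2:60093840-60108812 had 6396, 13611 and 14973 bp in the AML lines, again with no K562 peak. Molm13 and OCI-AML3 held 16531 and 16957 bp at chr20:11443359-11461424, 430.4 kb from BTBD3, where the other two lines had none. K562 had a 28724 bp peak at chr19:28518837-28547560 over lncRNA genes that no other line shared. Its second named wide peak, 16842 bp at chr19:28599054-28615895, was also held by Molm13 with 4529 bp and by OCI-AML3 with 4790 bp.

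Fold enrichment was compared as the percentile of a peak within its own list, since the scales of the lists differ. The median desert percentile was 23.8 (HL-60), 31.2 (Molm13), 41.4 (OCI-AML3) and 46.9 (K562), and the distal medians were 34.5, 39.4, 40.5 and 40.2. The desert median was below the distal one in HL-60 and Molm13, above it in K562 and close to it in OCI-AML3 (mean difference -2.83, SD 8.09, exact sign-flip p = 0.50, adjusted 0.667, n = 4). Among the strongest 10% of their list were 7 HL-60 desert peaks (0.492%), 43 Molm13 ones (2.23%), 94 OCI-AML3 ones (4.53%) and 77 K562 ones (6.94%), and 2.24%, 3.23%, 4.61% and 4.58% of the distal peaks. A q-value below 0.001, given above for desert peaks, was held by 24.5%, 36.1%, 44.0% and 28.8% of distal peaks.

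The strongest desert peaks lay at lncRNA promoters as well as in sequence without a gene. In HL-60 the highest fold enrichment, 9.70, was at the TSS of LINC01572 and ZFHX3-AS1 in chr16:72663390-72666361, where Molm13 had 5.42, OCI-AML3 4.40 and K562 4.14. In Molm13 it was 11 at shared region 2, where HL-60, OCI-AML3 and K562 had 5.45, 5.35 and 4.74. In OCI-AML3 the strongest peak, 8.68, lay inside the lncRNA gene LINC02237, where Molm13 had 10.9 and HL-60 and K562 had none, and the next 2 peaks were 7.22, in the chr5 region above, and 7.06, at chr6:141481063-141486408, 646.5 kb from GJE1, which Molm13 (6.95) and HL-60 (3.71) also held. The strongest HL-60 peak that no other line held was 8.52 at chr2:175463298-175464723, 281.6 kb from ATP5MC3, with no annotated gene. Another HL-60 peak of this kind, 5.92 at chr7:58311237-58311482, was 246 bp wide. Molm13 alone held narrow peaks of 6.99 at chr14:106745339-106745719 and 6.08 at chr2:211139612-211139940, both without an annotated gene. OCI-AML3 alone held 4.70 at chr4:101083098-101085399, inside PPP3CA, a catalytic subunit of the phosphatase calcineurin, and 4.68 at chr3:22713550-22714028. The K562 peak at chr6:68037709-68050477, over the TSS of ENSG00000285838, had 5.79 and a width of 12769 bp.

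Sharing between lines was lower in deserts than elsewhere. A desert peak was overlapped by at least 1 bp of a peak in another line in 323 cases in HL-60 (22.7%, 95% interval 20.6 to 24.9%), 954 in Molm13 (49.5%, 47.3 to 51.7%), 969 in OCI-AML3 (46.7%, 44.5 to 48.8%) and 197 in K562 (17.8%, 15.6 to 20.1%). Over all peaks of these lists the shares were 69.3%, 73.0%, 70.9% and 44.0%. Distal peaks gave 52.1%, 63.9%, 60.7% and 27%. The desert share was lower than the distal share in 4 of 4 lines, by a mean of -16.8 percentage points (SD 8.75, n = 4, exact two-sided sign-flip p = 0.13, the smallest possible, adjusted 0.214). With q-values below 0.001 the desert shares were 62.1% (HL-60), 75.2% (Molm13), 50% (OCI-AML3) and 18.8% (K562).

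Within classes of equal width, chosen after the values were seen, the difference in sharing was smallest for wide peaks in the AML lines. Of peaks of 2 kb or more, 92.2% of 64 desert peaks and 96.1% of distal peaks in HL-60 were shared, 93.9% and 96.4% in Molm13, and 86.0% and 90.2% in OCI-AML3. Most of these peaks were shared in both groups, which left little room for a difference. In K562 the same class gave 24.0% of 287 desert peaks and 44.6% of distal peaks. Under 500 bp, the shares were 15.1% and 34.8% in HL-60, 25.5% and 37.5% in Molm13, 23.9% and 34.2% in OCI-AML3, and 16.5% and 15.9% in K562.

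Molm13 and OCI-AML3 shared desert peaks most. OCI-AML3 overlapped 45.7% of Molm13 desert peaks and Molm13 overlapped 41.9% of OCI-AML3 desert peaks, against 68.4% and 62.7% over all peaks. HL-60 desert peaks were overlapped by Molm13 in 18.0%, by OCI-AML3 in 18.3% and by K562 in 4.99% of cases, against 62.1%, 64.4% and 48.3% over the whole HL-60 list. K562 desert peaks were overlapped by HL-60 in 6.22%, by Molm13 in 11.9% and by OCI-AML3 in 13.9%, against 25.6%, 36.6% and 40.0%. In K562 lay 7.06% of Molm13 desert peaks (39.8% over that list) and 7.56% of those of OCI-AML3, of which HL-60 held 12.2%, against 40.5% and 33.6%; HL-60 held 12.8% of Molm13 desert peaks, against 35.0%.

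When the desert peaks of the 4 lists were merged where they overlapped, 5117 regions were obtained. A peak of 1 line alone made up 4093 of them (80.0%), 752 (14.7%) held 2 lines, 228 (4.46%) held 3 and 44 (0.86%) held all 4. The 1-line regions were spread over the lines, with 1107 in OCI-AML3, 1101 in HL-60, 973 in Molm13 and 912 in K562. The most frequent combination was Molm13 with OCI-AML3 (596 regions), followed by the 3 AML lines together (154). HL-60 with K562 alone had 12.

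**Figure D3:**
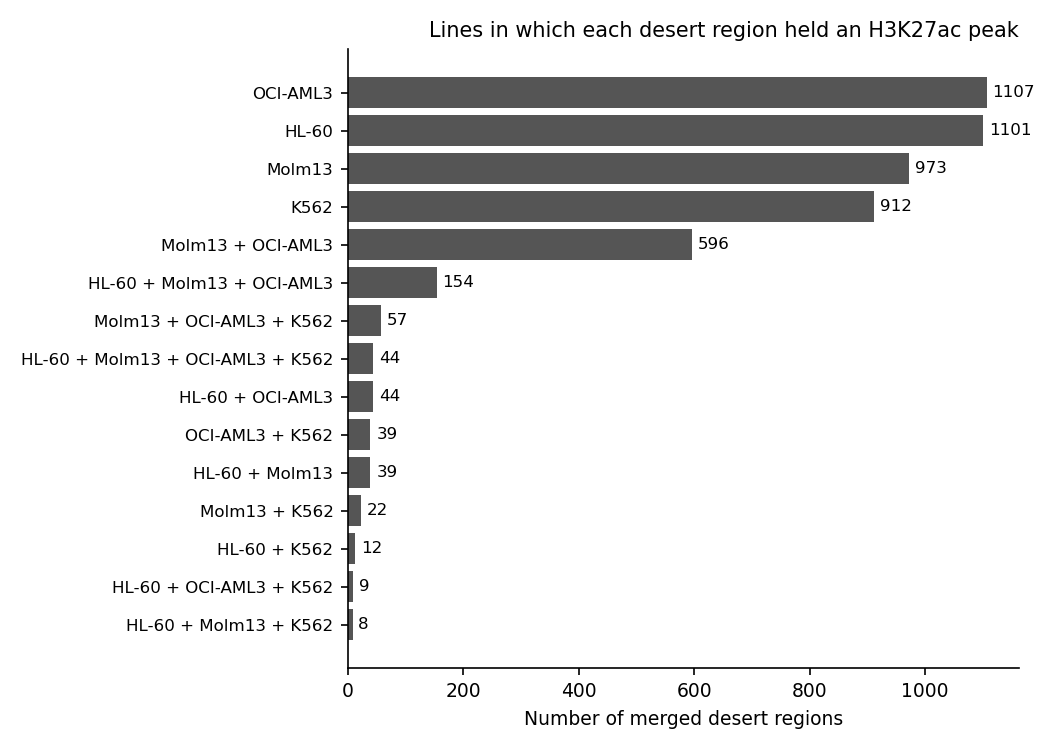
Number of merged desert regions (horizontal axis) for each combination of lines that held a peak there (vertical axis). The 4 single-line classes hold 912 to 1107 regions each, Molm13 with OCI-AML3 596, and all 4 lines 44.

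Desert peaks found in all 4 lines made up 42 of the HL-60 members (2.95%), 44 of Molm13 (2.28%), 43 of OCI-AML3 (2.07%) and 40 of K562 (3.61%), whereas 43.6%, 25.2%, 23.7% and 23.5% of all peaks in these lists were of this kind. Among distal peaks the shares were 16.8%, 7.98%, 7.38% and 7.33%. Shared peaks were wider and stronger than unshared ones of the same line. In OCI-AML3 the median width was 713 bp with no other line, 1376 bp with 1, 2192 bp with 2 and 2139 bp with 3, and the median percentile of fold enrichment was 31.0, 53.6, 72.2 and 70.4. HL-60 went from 548 to 662, 1000 and 1054 bp, Molm13 from 536 to 1032, 1718 and 1586 bp, and K562 from 986 to 1141, 1252 and 2116 bp. The unshared K562 peaks stood out among the lines, with a median percentile of 45.2 against 20.8 (HL-60), 22.3 (Molm13) and 31.0 (OCI-AML3). Since a wider peak is overlapped more easily, these medians are a description without a test.

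The 5 shared regions ranked highest by their lowest percentile of fold enrichment in any list lay at lncRNA genes. At JPX (chrX:73942590-73946601) the fold enrichment was 5.95 (HL-60), 7.17 (Molm13), 4.73 (OCI-AML3) and 4.60 (K562), at percentiles of 86.0, 88.3, 92.0 and 97.2. LINC00680 (chr6:57960912-57961538) had 5.22, 7.59, 4.25 and 3.86; the annotation has a pseudogene of the same name there. A region at ENSG00000287277 (chr10:6918979-6930877), 338.7 kb from PRKCQ, a kinase of T cell receptor signalling, had 6.13, 10.6, 5.18 and 3.57. A region at 3 lncRNA genes without names, chr6:67875863-67892987, had 4.99, 10.2, 5.00 and 6.65 and widths of 2142, 7087, 11909 and 16504 bp.

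Strong regions held by the 3 AML lines and not by K562 included a region of 780 bp at the lncRNA genes FAM88B and LERFS on chromosome 9, with a fold enrichment of 6.42 (HL-60), 8.75 (Molm13) and 4.92 (OCI-AML3). The region chr13:105137411-105141997, 324.0 kb from DAOA and outside any gene, had 5.79, 8.54 and 5.30.

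Fewer desert peaks than peaks of the whole list lay at a lncRNA promoter in the AML lines, while in K562 the share over all peaks fell within the interval of the desert share. A desert peak lay within 500 bp of a lncRNA TSS in 52 cases in HL-60 (3.65%, 95% interval 2.80 to 4.76%, against 12.7% of all peaks), 81 in Molm13 (4.20%, 3.39 to 5.19%, against 10.3%), 97 in OCI-AML3 (4.67%, 3.85 to 5.67%, against 10.5%) and 132 in K562 (11.9%, 10.1 to 13.9%, against 10.6%). Distal peaks, which also exclude protein-coding promoters, gave 6.86%, 6.03%, 6.21% and 6.39%. The desert share was above the distal share in K562 and below it in the AML lines, and over the 4 lines the mean difference was -0.266 percentage points (SD 3.92, exact sign-flip p = 1.0, n = 4). These shares depended on the weak peaks: with q-values below 0.001 the desert shares were 13.3% (HL-60), 7.82% (Molm13), 7.23% (OCI-AML3) and 25.8% (K562), and the mean difference turned to 0.644 percentage points. Bodies of lncRNA genes held 31.2% of desert peaks (HL-60), 34.1% (Molm13), 37.7% (OCI-AML3) and 51.0% (K562), and 58.7%, 55.7%, 52.7% and 38.3% of desert peaks overlapped no annotated gene. Bodies of protein-coding genes, which can reach far from their TSSs, held 9.11 to 10.4% in the 4 lines.

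Seen from the genes, 2454 lncRNA genes had a TSS in a desert. A desert peak lay within 500 bp of 60 of them for HL-60 (2.44%), 93 for the Molm13 list (3.79%), 108 for OCI-AML3 (4.40%) and 144 for K562 (5.87%), against 15.0%, 20.3%, 22.1% and 22.1% of all lncRNA genes. At least 1 line covered 247 genes (10.1%), and all 4 lines covered 21. K562 alone covered 102, OCI-AML3 alone 28, Molm13 alone 21 and HL-60 alone 11, while 19 were covered in the 3 AML lines and not in K562. A lncRNA TSS was present in 3.84% of regions held by 1 line, 5.19% of those held by 2, 10.1% of those held by 3 and 40.9% (18 of 44) of those held by all 4.

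Named lncRNA genes covered in all 4 lines included genes with known links to blood cells or cancer. CYTOR, a lncRNA raised in many tumours, had fold enrichments of 3.84 (HL-60), 4.40 (Molm13), 3.35 (OCI-AML3) and 3.69 (K562). MIR4435-2HG, whose mouse counterpart controls myeloid cell lifespan through the neighbouring pro-apoptotic gene BCL2L11, had 4.00, 4.02, 4.12 and 4.05. The peak at MIR4435-2HG lay inside the gene, away from its 5′ end, and was 597 bp wide (HL-60), 1201 bp (Molm13), 2464 bp (OCI-AML3) and 4303 bp (K562). PVT1, the lncRNA gene next to MYC, had 3.42, 4.19, 3.17 and 4.01 at an internal TSS 306.5 kb from that of MYC, with a width of 9521 bp in K562 against 1023 to 2961 bp in the AML lines. LINC02100, 1088.7 kb from the nearest protein-coding TSS, had 5.41, 7.81 and 5.55 in the AML lines and 2.51 in K562, at the 19.2 percentile of the K562 list. SEPTIN7P9 and NCAL1 were the other named genes in this group beside those described above.

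The strongest genes covered by 1 line are given for each line, chosen from 102 such genes for K562, 28 for OCI-AML3, 21 for Molm13 and 11 for HL-60, so that their percentiles cannot be ranked between lines. NIHCOLE, MIR3681HG, LINC02573 and LINC02864 lay at percentiles of 99.5, 97.8, 96.3 and 95.9 of the K562 list, and the peak at MIR3681HG, 426.1 kb from TRIB2, was 16380 bp wide. In OCI-AML3 the 4 first were LINC01684, LINC02181, LINC01281 and CCDC26, at percentiles of 77.9, 59.0, 43.9 and 38.6; CCDC26 is a lncRNA gene in the MYC neighbourhood whose locus is amplified in some myeloid leukaemias. In HL-60 they were LINC00877, LINC01320, LINC02645 and LINC01826, at 62.0 down to 17.6, and in Molm13 LINC02740, CASC6, LINC02105 and LINC02064, at 37.9 down to 27. The peaks at MIR3681HG, CCDC26, LINC01684, LINC00877 and LINC01320 lay at a TSS far inside the gene. They do not describe the promoter at its 5′ end. For CCDC26, coverage by 1 line refers to TSSs and not to the whole gene. The desert that contains most of CCDC26 had 4 peaks (HL-60), 30 (Molm13), 27 (OCI-AML3) and 55 (K562).

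Desert peaks were counted per desert, and many deserts held none. No peak was found in 516 of the 992 deserts (HL-60), 474 (Molm13), 534 (OCI-AML3) and 724 (K562), and 269 deserts had none in any list, while 134 had a peak in all 4. The fullest deserts that together held 50% of the peaks numbered 86 (HL-60), 85 (Molm13), 69 (OCI-AML3) and 35 (K562), with 31.0%, 25.5%, 18.5% and 11.1% of the desert sequence. By these counts the K562 peaks were the most concentrated and the HL-60 peaks the most even. K562 also had the fewest desert peaks (1109), and fewer peaks leave more deserts empty. The order was not examined at equal numbers of peaks. The fullest deserts were picked by these same counts and deserts differ in length, so random placement would also give uneven counts. No such expectation was computed. Another desert peak of the same line lay within 12.5 kb of 15.4% of the HL-60, 34.2% of the Molm13, 47.5% of the OCI-AML3 and 54.1% of the K562 desert peaks, while 26.8%, 48.2%, 55.1% and 61.0% of distal peaks had another distal peak as near.

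The desert between CD83, a surface marker of activated antigen-presenting cells, and JARID2, a partner of the Polycomb repressor complex, was dense in all 4 lines. Its desert stretch, chr6:14367772-14996069, began 250 kb inside the flanking TSSs and held 13 peaks (HL-60), 38 (Molm13), 33 (OCI-AML3) and 23 (K562) over 0.628 Mb, or 20.7, 60.5, 52.5 and 36.6 per Mb. It also held 5 of the 44 regions shared by all 4 lines. One of these, chr6:14448197-14456685 inside ENSG00000286277, was the third strongest in HL-60 at 7.32 and was 7280, 3544, 6488 and 7624 bp wide.

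The MYC to GSDMC desert (chr8:127987745-129527587), which contains most of PVT1 and CCDC26, had 4 peaks (HL-60), 30 (Molm13), 27 (OCI-AML3) and 55 (K562), the most of any desert in K562. The desert around MIR4435-2HG between BCL2L11 and ANAPC1 (chr2:111372576-111606847) had 3, 8, 11 and 17 peaks, which in K562 was 72.6 per Mb. In the desert between FAT4 and INTU on chromosome 4 K562 had 35 peaks, against 3, 3 and 4 in the AML lines.

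Other deserts were filled in Molm13 and OCI-AML3. Between MAT2B and TENM2 (chr5:163765823-166729029) there were 12, 41, 44 and 6 peaks in HL-60, Molm13, OCI-AML3 and K562. Next to CITED2, a transcriptional co-regulator needed by blood stem cells, the desert up to GJE1 had 11, 32, 49 and 22. The desert between PRKCQ and SFMBT2 had 2, 14, 13 and 3. Between CSMD3 and TRPS1 on chromosome 8, OCI-AML3 had 61 peaks, the most of any desert in any line, whereas Molm13 had 14, HL-60 1 and K562 0. Between KCNRG and DLEU7 on chromosome 13 the counts were close, with 7, 5, 5 and 5.

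The fullest deserts of HL-60 were of another kind, since they spanned centromeres or a chromosome end. They lay between SRGAP2C and H3-7 on chromosome 1 (31, 24, 13 and 10 peaks), between the start of chromosome 13 and TUBA3C (30, 4, 3 and 7), and between ZNF37A and ZNF33B on chromosome 10 (27, 21, 3 and 13). The first was 22.2 Mb long, of which 4.16 Mb were assembled. The 42 deserts that hold a run of at least 10 kb of undetermined bases had 16.7% of the desert sequence and held 17.6% of the desert peaks (HL-60), 10.8% (Molm13), 9.59% (OCI-AML3) and 13.6% (K562). Their part in the flat HL-60 profile was not tested. Without them the desert share of the HL-60 list was 5.66%.

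Chromosomes differed in how densely their deserts were marked. Chromosome 6 was above the mean of its line in all 4, with 1.26 times the mean desert density (HL-60), 1.68 (Molm13), 1.72 (OCI-AML3) and 1.77 (K562), while all peaks on chromosome 6 were at 1.01 to 1.15 times the mean. Chromosome X was below the mean in all 4, at 0.193, 0.323, 0.415 and 0.297, and all its peaks were at 0.361 to 0.438. On chromosome 8 the lines stood apart, with 303 desert peaks in OCI-AML3 (2.85 times its mean), 163 in Molm13 (1.65), 75 in K562 (1.32) and 13 in HL-60 (0.178). All peaks on chromosome 8 were at 1.26, 0.95, 0.822 and 0.346 times the mean in these lines. Copy number was not measured in these lists, and its part in the difference was not tested.

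K562 had few desert peaks on chromosome 14 (7 peaks, 0.184 times its mean, against 0.79 for all its peaks there) and many on chromosome 21 (46 peaks, 1.79 times against 0.844). On chromosome 19 its 22 desert peaks were at 2.43 times the mean, near the 2.30 of all its peaks. HL-60 was highest on chromosome 15 (50 peaks, 1.85 times against 1.34), and OCI-AML3 was low on chromosome 18 (23 peaks, 0.303 times against 0.698). Chromosome 13 was at 1.49, 1.29 and 1.27 times the mean in HL-60, Molm13 and OCI-AML3, where all peaks on it were at 0.873, 0.855 and 0.904, and at 0.674 in K562, where all peaks were at 0.38.

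A list of 30 blood regulators was used to see which of them lay nearest to desert peaks, and 14 had at least 1 such peak. Their peaks made up 2.18% of desert peaks (HL-60), 3.27% (Molm13), 4.58% (OCI-AML3) and 5.23% (K562), while 1.35%, 1.67%, 1.79% and 1.15% of distal peaks had a gene of the list as the nearest. The share of all protein-coding genes with such a peak was not counted, so the 14 genes have no background beside them. Genes outside the list had more desert peaks over the 4 lines, such as CITED2 (87) and GSDMC (83), against 41 for RUNX1. No desert peak was nearest to 16 genes, among them MYB, KIT, GATA2, ERG, LMO2, TAL1 and GFI1. A gene can be nearest to a desert peak only where a desert borders it. A distal peak has no such limit, so the difference between the desert and distal shares cannot be read as a trait of these regulators. Which genes of the list border a desert was not checked, so these 16 genes cannot be said to lack distant H3K27ac. Nearness does not show that a peak acts on the gene.

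Among the transcription factors of the list, MYC was nearest to 1 desert peak (HL-60), 4 (Molm13), 7 (OCI-AML3) and 21 (K562), at 264 to 996 kb. RUNX1, a master regulator of blood stem cells, had 4, 13, 15 and 9. BCL11A had 8, 9 and 9 in the AML lines and 0 in K562, and SATB1, an organiser of chromatin in lymphoid and stem cells, had 2, 6, 14 and 0. KLF6, a zinc finger factor, was nearest to 0, 4, 8 and 0, and ID2, an inhibitor of helix-loop-helix factors, to 4, 6, 11 and 2. ZEB2, a repressor needed in several blood lineages, had 6, 4, 6 and 12. TRIB1, a pseudokinase that lowers C/EBPα, had 0, 7, 8 and 1, and MEIS1, a homeobox factor of stem cells and leukaemia, had 3, 2, 0 and 0. SOX4 had 1, 2, 8 and 2, and MEF2C 0, 1, 5 and 5. Outside the list, and chosen after the counts were seen, PTPRC (the pan-leukocyte antigen CD45) was nearest to 8, 10, 28 and 0 desert peaks.

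Desert peaks were poorer in G and C than distal peaks in 4 of 4 lines. The median was 37.6% (HL-60), 39.2% (Molm13), 38.7% (OCI-AML3) and 39.3% (K562), against 44.3%, 43.7%, 42.5% and 41.4% (mean difference -4.26 points, SD 1.90, n = 4, exact sign-flip p = 0.13, adjusted 0.214). Peaks of all 4 lines had higher medians, of 47.1%, 45.1%, 43.7% and 43.1%.

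Motif matches were counted in 300 bases at the centre of each peak and set beside all 2239893 windows of this length that tile the desert sequence, of which 38.0% held the GATA letters, 17.7% RUNX, 1.37% ETS/SPI1, 9.35% AP-1, 17.3% CEBP, 16.5% E-box and 15.9% MEIS. The GATA letters, read by the erythroid factor GATA1 and its relatives, were in 38.8% of desert peaks (HL-60), 36.6% (Molm13), 38.2% (OCI-AML3) and 40.5% (K562), and in 29.3%, 29.2%, 30.8% and 38.8% of distal peaks. They were thus about as frequent in desert peaks as in desert sequence at large. The ETS/SPI1 letters, read by the myeloid factor PU.1, were in 2.18%, 3.79%, 4.58% and 3.52% of desert peaks, above the share of the tiles in 4 of 4 lines. Distal peaks held them in 3.95%, 3.95%, 4.72% and 2.89%, so the desert share was below the distal one in the 3 AML lines and above it in K562. RUNX letters were in 18.3%, 20.1%, 21.7% and 18.7% of desert peaks and in 22%, 22.8%, 23% and 19.6% of distal ones. AP-1 letters were in 10.1%, 11.7%, 14.9% and 12.6%, against 10.9%, 12%, 13.2% and 14.3%. CEBP letters were in 18.0%, 20.1%, 22.9% and 16.0%, against 17.7%, 17.7%, 21.1% and 15.1%. E-box letters were in 16.8 to 19.0% and MEIS letters in 15.9 to 17.7% of desert peaks, against 18.6 to 19.6% and 19.0 to 19.7% of distal ones. RUNX, E-box and MEIS letters were less frequent in desert than in distal peaks in 4 of 4 lines. These motif letters are short, the GC content of desert and distal peaks differed as given above, and no test over peaks was made.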

How the data were processed

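Per the labels, chromatin was cross-linked, sonicated and immunoprecipitated with an H3K27ac antibody. Per the study's methods and the submitters' processing notes, the authors trimmed reads with Trim Galore 0.4.5, aligned them to hg38 with Bowtie2, kept unique alignments, which removes signal over near-identical repeats, and called broad peaks with MACS2 2.1.1 at q 0.05; the control library is not given in the sources used here. The deposited lists hold for each peak a score, a ratio (fold enrichment over local background) and p- and q-values written as −log10. The authors' values were ranked or filtered within a list and the score was read only to check the file. The largest q-values were 0.0947 to 0.0995. Peaks on Y and unplaced contigs (353) were left out.

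TSSs were those of protein-coding transcripts of protein-coding genes (GENCODE 44, hg38), and coordinates are 1-based. Overlap required 1 bp. Group membership came from sample titles. Intervals of shares are Wilson 95% and those of medians are binomial order intervals, and both cover counting error over peaks, which are not replicates; p-values come from exact two-sided sign-flip permutation tests over 4 lines with Benjamini-Hochberg adjustment over 12 measures. Depth was unknown and no read-based interval could be given. Named regions were, per line, the 3 strongest and 3 widest and the 2 strongest held by 1 line, the 5 strongest in all 4 lines and 3 in the AML lines without K562 (by the lowest percentile); named deserts were the 3 fullest per line and the 5 with most regions of all 4 lines; named lncRNA genes were up to 12 in all 4 lines and up to 4 per single line. Of the named regions, 2 are not reported here. Members and lists were chosen with earlier results of these data known. Alternatives were a 500 kb limit, q below 0.001, equal list length, gene 5′ ends, 50% overlap, and a peak over the lncRNA TSS itself. Distances, overlaps and planted peaks were tested on simulated data, where 200 of 200 planted desert peaks were found. Tools were bedtools 2.31.1, pysam 0.24.0, matplotlib 3.10.9, SciPy 1.17.1, pandas 2.3.3 and NumPy 2.4.6 in Python 3.11.15.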

Additional observations from a re-analysis of the deposited data

How the results depend on the processing

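Values are given in the order HL-60, Molm13, OCI-AML3 and K562 unless a line is named. The mean difference in sharing between desert and distal peaks stayed negative under the 6 alternatives that changed it, from -12.9 to -19.3 percentage points, and that in width stayed negative under 5, from -64.2 to -128 bp; no p could pass 0.05. The mean difference at lncRNA TSSs changed sign, to 0.644 with q below 0.001 and to 0.000682 with the peak over the TSS itself. With q below 0.001 there were 203, 524, 844 and 345 desert peaks, or 2.20%, 3.07%, 3.99% and 2.15% of the list, with median widths of 925, 1504, 1746 and 2409 bp, 62.1%, 75.2% and 50% shared in the AML lines, and 13.3%, 7.82%, 7.23% and 25.8% at a lncRNA TSS. With lists cut to the 20733 strongest peaks, Molm13, OCI-AML3 and K562 had 769, 819 and 530 desert peaks (3.71%, 3.95% and 2.56%), median widths of 1097, 1764 and 1708 bp and 6.50%, 7.20% and 19.6% at a lncRNA TSS, and HL-60, Molm13 and OCI-AML3 had 17.2%, 64.6% and 62.1% shared; HL-60, whose list is the shortest, kept 1424 and 6.87%. With a limit of 500 kb there were 733, 890, 905 and 486 peaks (3.54%, 2.54%, 2.41% and 1.30%), 18.8%, 45.1% and 15.2% were shared in HL-60, Molm13 and K562, and Molm13 had a median width of 777 bp and 3.37% at a lncRNA TSS. With gene 5′ ends in place of all TSSs, 8.34%, 7.04%, 7.29% and 4.08% of peaks were desert peaks and 9.82% of those in K562 lay at a lncRNA TSS. With an overlap of 50%, 42.0%, 32.9% and 11.6% were shared in Molm13, OCI-AML3 and K562. With the peak over the TSS itself, 2.67%, 3.32% and 3.81% were at a lncRNA TSS in the AML lines. Without deserts holding undetermined runs, an alternative chosen after seeing the data, desert peaks were 5.66%, 4.90%, 5.00% and 2.56% of the list and 20.3% were shared in HL-60. The causes of these moves were not tested, other than that stricter lists hold fewer peaks. The lncRNA share stayed highest in K562 under each alternative, and HL-60 had the largest desert share except with q below 0.001. No paired analysis was possible because no line had a second H3K27ac peak list. Depth was unknown and list lengths differed between the lines, so differences between lines come without a spread between replicates.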

Other observations

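A list of dCas9 peaks, from K562 cells with dCas9-KRAB and sgRNAs against LTR2B repeats, was read by the same rule. Of its 392 peaks on chromosomes 1 to 22 and X, 65 lay in gene deserts (16.6%, Wilson 95% interval 13.2 to 20.6%). Their median fold enrichment was 8.86, against 7.46 for the other dCas9 peaks. H3K27ac peaks of Molm13 overlapped 3 of the 65 and those of OCI-AML3 overlapped 3, while HL-60 and K562 overlapped 0, and 61 were overlapped in none of the 4 lists. The same overlap was not counted for the other dCas9 peaks, so it cannot be called a trait of those in deserts. The K562 H3K27ac list came from cells with the empty vector.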
